A study of Mus musculus with 8 samples.

Results

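The 10 CC chemokine ligands described here are Ccl2, Ccl3, Ccl4, Ccl5, Ccl6, Ccl7, Ccl9, Ccl12, Ccl17 and Ccl22. They were chosen by name and make up 10 of the 32285 genes in a single-cell count table of neonatal mouse lung. All 10 were detected. Together they held 142585 unique molecular identifiers (UMIs, each standing for 1 captured transcript), which was 0.185% of all UMIs, and 8182 of 11806 cells (69.3%) held at least 1 UMI of a member. The count of UMIs over a group of cells is given below as CPM, the UMIs of a gene in every 1000000 UMIs of that group.

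CC chemokines are small secreted proteins, named for a pair of adjacent cysteines, that bind G protein-coupled receptors on leukocytes and direct their migration. Ccl2, Ccl7 and Ccl12 are ligands of Ccr2 and draw monocytes out of the bone marrow and into tissue. Ccl3, Ccl4 and Ccl5 attract monocytes and lymphocytes, and Ccl3 and Ccl5 bind Ccr1. Ccl6 and Ccl9 are rodent chemokines made by myeloid cells that act on Ccr1. Ccl17 and Ccl22 share the receptor Ccr4, which is found on T cell subsets. In the lung these proteins recruit monocytes, neutrophils and lymphocytes during injury and infection.

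The lungs came from 5-day-old C57BL6/J pups of libraries titled WT (wild type), all of which had met lipopolysaccharide, from bacterial cell walls, in the womb at gestation day 14. From birth, pups of 4 libraries breathed 21% oxygen (Air, labelled healthy) and pups of 4 libraries breathed 65% oxygen (Hyperoxia), a model of bronchopulmonary dysplasia. The lungs were frozen, thawed and sorted for endothelial, epithelial and immune cells, so the numbers of cells per type reflect the sort and the thaw as well as the lung. The labels tie no column of the table to a library, and so the values describe Air and Hyperoxia cells together, no oxygen comparison was made, and there is no replicate of a group and no test. The barcodes form 8 ordered runs, which are shown singly but are not known to be the 8 libraries. Intervals are 95% intervals that cover counting error only.

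Cells were grouped by 10 gates on UMIs of marker genes that were not members. The gates asked for at least 2 UMIs of Ear1 and Marco together (alveolar macrophage), 5 of C1qa and C1qb (interstitial macrophage), 5 of Inhba and Saa3 (inflammatory macrophage), 2 of F13a1 with 1 of Ly6c2 (classical monocyte) or 2 of Ace and Adgre4 (nonclassical monocyte). The others asked for 2% of UMIs from S100a8 and S100a9 with 1 UMI of Csf3r (neutrophil), 1 UMI of Ncr1 (natural killer), 2 of Cd3e and Trac (T), 1 each of Ccr7 and Fscn1 (dendritic) or 3% of UMIs from Sftpc (alveolar type 2). Exactly 1 gate was passed by 6122 cells (51.9%), none by 5273 (44.7%) and more than 1 by 411 (3.48%), and only the first were counted in a gate. The gates held 905, 287, 174, 376, 2386, 381, 190, 662, 44 and 717 cells in the order given. The 12 barcodes found in more than 1 run covered 31 cells.

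Other markers of each gate checked its name. All 6 of 6 further markers were highest in their own gate for neutrophil, natural killer, dendritic and alveolar type 2 cells, 5 of 6 for T cells and for nonclassical monocytes, and 6 of 7 for alveolar and for interstitial macrophages. Folr2, a defining gene of many tissue macrophages, was nearly absent from the interstitial macrophage gate at 0.676 CPM. The inflammatory macrophage gate led for 3 of 7, with Thbs1 and Cxcl1 below the level of all other cells. The classical monocyte gate led for 2 of 6, and 5 of 6 were at least 2-fold over the remaining cells. The lowest of the 6 stood at 0.163 times the level of those cells. The nonclassical monocyte gate also held the endothelial gene Cdh5 at 116 CPM, against 1221 CPM in an endothelial group defined below, and the part of such cells in its values was not tested.

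The members differed widely in where they were found. For each gene, the leading gate was the one with the highest CPM, and its fold is that CPM over the CPM of all cells outside the gate. Of the 10 members, 9 reached 20 CPM in a gate and 7 of these were called, meaning 4-fold or more over the remaining cells, with a median fold of 6.90 over the 9. Among all genes that reached 20 CPM in their leading gate, 22.6% were at least 4-fold higher there and the median fold was 2.01. Ccl6 led in alveolar macrophages, Ccl9 there and nearly equally in inflammatory macrophages, Ccl7 in inflammatory macrophages, Ccl2 and Ccl12 in interstitial macrophages, Ccl3 in neutrophils, Ccl4 in natural killer cells, and Ccl5, Ccl17 and Ccl22 in dendritic cells. Against the next-highest gate rather than all other cells, 2 of the 10 were 4-fold higher at 20 CPM or more, Ccl17 and Ccl22. The share of all genes that met this ratio was not computed, so the 2 are only a description.

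**Figure D1:**
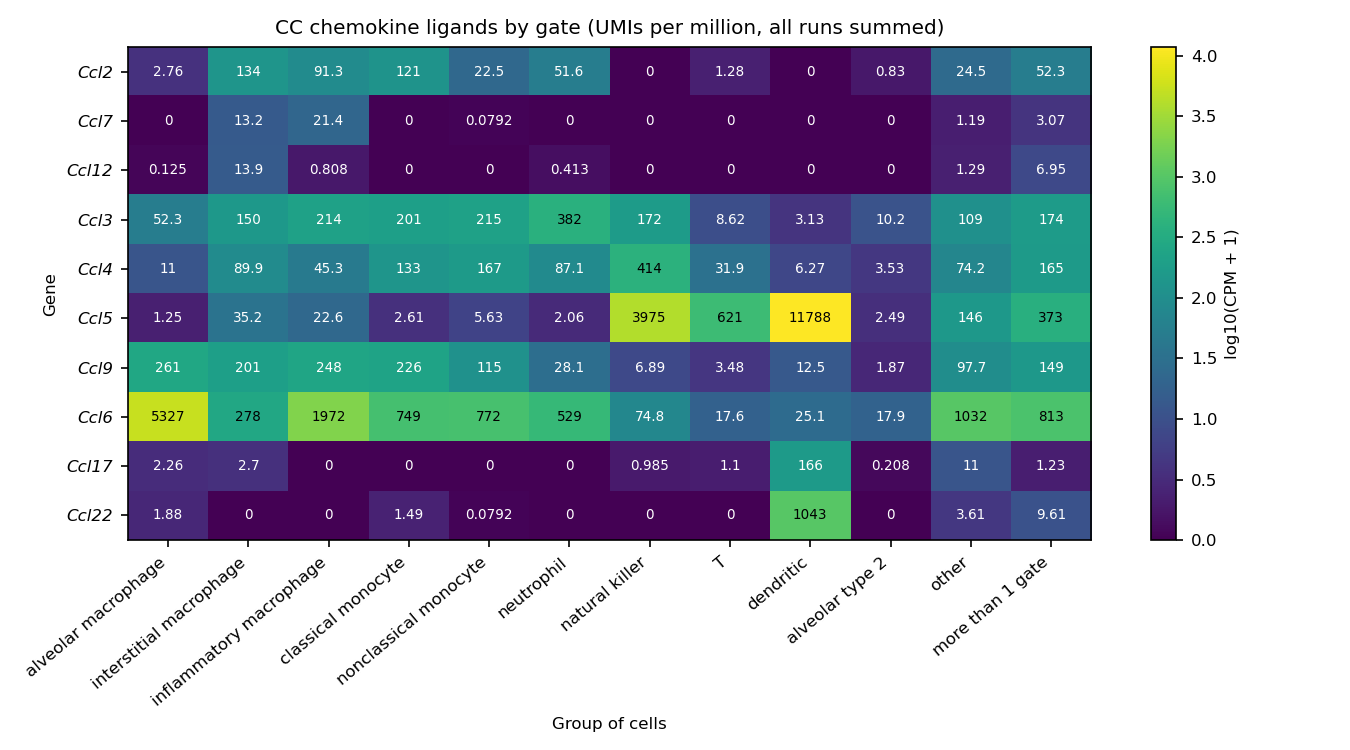
CPM (printed in each square) of the 10 members in the 10 gates, in cells that passed no gate (other) and in cells that passed more than 1, all runs summed, with colour on a log10(CPM + 1) scale. Ccl5 at 11788 CPM in the dendritic gate and Ccl6 at 5327 CPM in the alveolar macrophage gate are the brightest squares, and Ccl17 and Ccl22 stand out in the dendritic gate alone.

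Summed over the members, the dendritic gate held the most chemokine transcript at 13045 CPM, followed by alveolar macrophages at 5659, natural killer cells at 4643 and inflammatory macrophages at 2615 CPM. Classical monocytes held 1435, nonclassical monocytes 1297, neutrophils 1081, interstitial macrophages 917 and T cells 685 CPM. The alveolar type 2 gate, an epithelial cell that should make little of these transcripts, held 37.0 CPM and serves below as a gauge of free RNA in the droplets. Taking each gate in turn, members called are given out of the members at 20 CPM or more there. The share called among all genes at that level follows in brackets. It was 3 of 4 in the dendritic gate (all genes 7.6%), 2 of 4 in natural killer cells (5.82%) and 1 of 5 in classical monocytes (0.347%). Among macrophages it was 1 of 3 in alveolar (1.97%), 1 of 6 in interstitial (1.11%) and 1 of 7 in inflammatory ones (1.5%). It was 0 of 5 in nonclassical monocytes (1.41%), 0 of 5 in neutrophils (4.34%) and 0 of 2 in T cells (5.06%). No member reached 20 CPM in alveolar type 2 cells (13.8%).

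The values per run are given as a description, since the leading gates were chosen on the sum of the same runs. A higher level in most runs was therefore likely in advance, and the share over all genes was not computed. Each member was compared with all other cells of the same run in every run with 20 or more cells of its leading gate. Ccl6, Ccl9 and Ccl12 were higher in the gate in 6 of 6 runs and Ccl4 in 5 of 5. Ccl2 was higher in 5 of 6 runs, Ccl3 in 2 of 3 and Ccl7 in 2 of 3. For Ccl5, Ccl17 and Ccl22 only run 7, with 22 dendritic cells, could be used, and each was higher there.

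**Figure D2:**
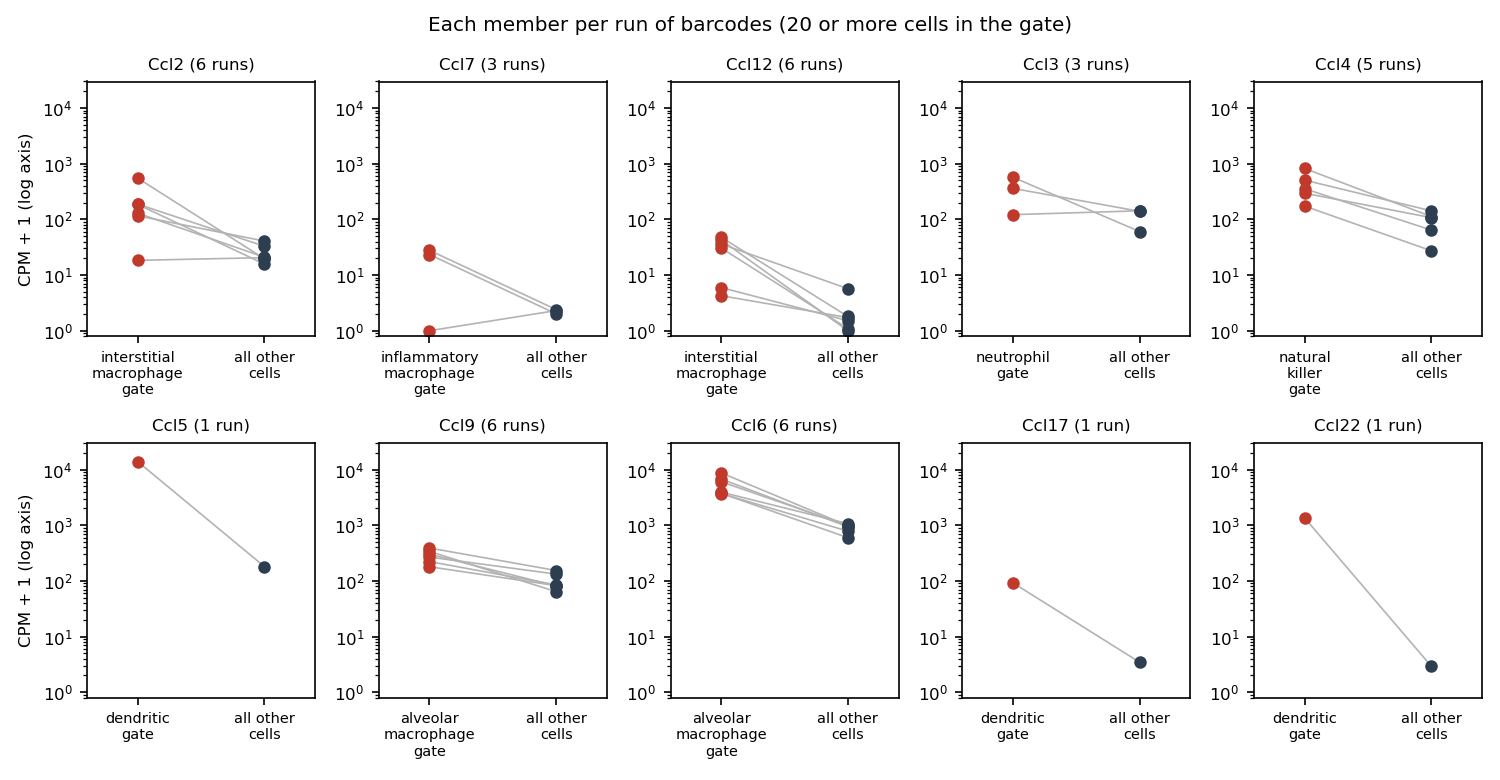
Each member in its leading gate (red) and in all other cells (dark) of the same run of barcodes, as CPM + 1 on a log axis, for runs with 20 or more cells in the gate, with a line joining the points of a run. The points for Ccl6, Ccl9, Ccl4 and Ccl12 lie higher in the gate in every run shown, whereas 1 run goes the other way for Ccl2, Ccl3 and Ccl7.

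Most of the family sits in a single stretch of the genome. In GENCODE on GRCm38, 8 of the 10 members lie on chromosome 11 within 1629113 bases. Ccl2 (82035571 to 82037453), Ccl7 (82045712 to 82047525) and Ccl12 (82101845 to 82103400) form one group on the plus strand. Ccl5 (83525778 to 83530518), Ccl9 (83572919 to 83578636), Ccl6 (83587882 to 83593087) and Ccl3 (83647844 to 83649355) follow on the minus strand, with Ccl4 (83662584 to 83664683) on the plus strand. Ccl22 (94745590 to 94751699) and Ccl17 (94810453 to 94812036) are 58753 bases apart on the plus strand of chromosome 8. The results below are ordered by these neighbourhoods.

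Ccl2, the main monocyte attractant of the family, was found in 3 myeloid gates at like levels. It stood at 134 CPM in interstitial macrophages (121 to 148), 121 CPM in classical monocytes (108 to 135) and 91.3 CPM in inflammatory macrophages (79.8 to 104). The first and the second differed by a ratio of 1.11 (0.952 to 1.28), so their order is not resolved. Neutrophils held 51.6 CPM and nonclassical monocytes 22.5 CPM, while alveolar macrophages held only 2.76 CPM. The interstitial macrophage level was 5.04-fold over the remaining cells (4.51 to 5.62).

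The level of Ccl2 in interstitial macrophages varied strongly between runs. It was 115 CPM in run 1, 549 in run 3, 184 in run 4, 128 in run 5, 17.4 in run 6 and 187 in run 7. Run 6, which holds the most cells of the gate, was the only one where the gate did not exceed the 19.6 CPM of all other cells. Run 3 was the highest, and 102 of its 145 UMIs came from 1 cell. Without run 3, and also without that cell alone, the classical monocyte gate led for Ccl2. The interstitial macrophage fold was then 3.41 and 3.76, while classical monocytes without the cell were 4.65-fold over the remaining cells.

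Differences in sequencing depth per cell were evened by thinning each cell to 2000 UMIs, which left out 1423 shallower cells. At that depth a Ccl2 UMI was found in 14.6% of classical monocytes, 11.9% of interstitial macrophages, 11.6% of inflammatory macrophages, 5.37% of neutrophils and 3.24% of nonclassical monocytes. Without thinning the first 3 shares were 24.7%, 21.6% and 23.6%. A Ccl2 UMI was thus detected in a minority of cells in every gate, which at these depths does not show that the rest lacked the transcript. No UMI was seen in the 190 natural killer cells, which by the limit of 3 counts allows up to 1.58% of cells with a UMI, nor in the 44 dendritic cells (up to 6.82%), and 0.558% of alveolar type 2 cells held 1.

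Ccl7, which also binds Ccr2, was rare, with 143 UMIs in 49 cells. Inflammatory macrophages held 53 of these UMIs (21.4 CPM) and interstitial macrophages 39 (13.2 CPM), a ratio of 1.62 (1.05 to 2.52). A single inflammatory macrophage of run 1 held 18 of the 53 UMIs. Without that cell the gate held 35 UMIs (14.3 CPM), close to interstitial macrophages and under 20 CPM, so the order of the pair and the place of Ccl7 among the 7 rest on 1 cell. The 7 gates of alveolar macrophages, classical monocytes, neutrophils, natural killer cells, T cells, dendritic cells and alveolar type 2 cells held 0. In the inflammatory gate the level was 26.8 CPM in run 1, 22.4 in run 6 and 0 in run 8, where the gate had 20 cells. In the interstitial gate it ranged from 3.73 CPM in run 6 to 36.4 in run 7. With run 1 left out, interstitial macrophages led for Ccl7, and it was likewise not called, at 16.2 CPM.

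Ccl12, a mouse ligand of Ccr2, was rarer still, with 117 UMIs in 36 cells. No other gate held more than 2 of them. Interstitial macrophages held 41 UMIs, or 13.9 CPM (9.95 to 18.8), against 1.03 CPM in all other cells, a 13.5-fold difference (with a lower bound of 9.01). It did not reach 20 CPM and is not counted among the 7. Per run, the gate held 3.26 CPM in run 1, 41.7 in run 3, 35.1 in run 4, 29.6 in run 5, 4.97 in run 6 and 46.8 in run 7, each from 4 to 11 UMIs. All 6 values were above those of all other cells, and runs 1 and 6 were the low ones. They were also the low ones for Ccl7 in the interstitial gate, at 8.96 and 3.73 CPM, though not in the inflammatory gate. A single cell of run 4 that passed no gate held 28 of the 117 UMIs (23.9%), beside 13 UMIs of Ccl2, and without that cell the fold was 21.4, as it was 20.7 without run 4. With cells thinned, with cells or runs weighted equally, or without run 1, Ccl12 passed 20 CPM, at 27.0, 36.0, 26.9 and 21.4 CPM. Another 14 UMIs lay in the 53 cells that passed both the interstitial macrophage and the nonclassical monocyte gate (24.4 CPM).

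The sequence just before the Ccl12 gene is shown because Ccl12 was higher in the interstitial macrophage gate in the 6 runs compared. RefSeq promoter sequences on GRCm38.p6 were at hand for 6 of the 10 members, and motifs were searched on both strands in the 250 bases before the RefSeq start of each. The stretch chr11:82101595-82101844, plus strand, overlaps no other GENCODE gene. Capitals mark TATAAA, the TATA box, and GGANNTTCC, a form of the kappa B motif read by NF-kB factors.
Ccl12: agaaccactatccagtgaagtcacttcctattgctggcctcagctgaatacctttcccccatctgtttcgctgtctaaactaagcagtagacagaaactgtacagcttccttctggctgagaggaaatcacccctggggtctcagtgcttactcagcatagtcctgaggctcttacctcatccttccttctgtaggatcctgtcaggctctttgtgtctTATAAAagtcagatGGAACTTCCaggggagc
TATAAA begins 31 bases before the start and the kappa B letters 17 bases before it. TATAAA is in 12.4% and GGANNTTCC in 3.59% of the 32851 promoters of this length, so the letters alone mark many genes, and they say nothing of which factor binds.

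Ccl2 was found in many of the cells with the rarer Ccr2 ligands. At 2000 UMIs per cell, 14 of the 23 cells with Ccl7 also held Ccl2, and 8 of the 17 cells with Ccl12 did, while 3.43% of all cells held Ccl2. Only 1 cell held both Ccl7 and Ccl12. The numbers are small and part of the overlap comes from the gates the genes share.

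Ccl3 and Ccl4, paired inflammatory chemokines that act early on neutrophils, macrophages and T cells, were found in 20.5% and 10.8% of all cells. Ccl3 was highest in neutrophils at 382 CPM (358 to 408). It stood between 150 and 215 CPM in interstitial macrophages, natural killer cells, classical monocytes, inflammatory macrophages and nonclassical monocytes, in rising order. Alveolar macrophages held 52.3 CPM, and T cells (8.62), alveolar type 2 cells (10.2) and dendritic cells (3.13) were lowest. The neutrophil level was 3.18-fold over the remaining cells (2.97 to 3.40) and 1.78-fold above nonclassical monocytes (1.65 to 1.92).

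The neutrophil lead of Ccl3 was not shared by all runs. The gate stood at 360 CPM in run 1, 571 in run 6 and 121 in run 7, and all other cells of those runs at 138, 59.5 and 142. Run 7 thus went the other way, with 31 neutrophils and 10 UMIs. Of the 381 neutrophils, 61.4% came from run 1. With cells thinned to 2000 UMIs, Ccl3 was found in 25.4% of neutrophils, 25.4% of inflammatory macrophages, 24.1% of classical monocytes and 21.2% of nonclassical monocytes, against 1.62% of alveolar type 2 cells. Without thinning the neutrophil share was 35.7%, at a median of 5122 UMIs, and the alveolar type 2 share 2.79%, at 4522 UMIs. The thinned shares of the myeloid gates were close while their CPM differed, and cells with Ccl3 held 6.81 UMIs of it on average in neutrophils against 3.72 in nonclassical monocytes.

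Ccl4 had a different order. Natural killer cells held 414 CPM (375 to 455), 4.97-fold over the remaining cells (4.49 to 5.49). The fold fell under the 4-fold line without run 3 (3.74), with cells thinned to equal depth (3.35) and as a mean over cells (3.68), so its place among the 7 depends on these choices. Next came nonclassical monocytes at 167, classical monocytes at 133, interstitial macrophages at 89.9 and neutrophils at 87.1 CPM. In natural killer cells it stood at 820 CPM in run 3, 506 in run 4, 354 in run 5, 172 in run 6 and 294 in run 7. In all other cells of the same runs it stood between 26.3 and 141 CPM. The gate was chosen on the sum of these runs, so higher values there were likely in advance. T cells held 31.9 CPM, and alveolar macrophages were low at 88 UMIs in 905 cells. In cells thinned likewise, Ccl4 was in 28.6% of natural killer cells, against 0.809% of alveolar type 2 cells. Among groups outside the gates, 122 cells with at least 2 UMIs of Flt3, Xcr1 and Cd209a (conventional dendritic) held 301 CPM, and 5 cells with basophil or mast cell genes held 70 UMIs (3620 CPM) in only 3 cells.

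Nonclassical monocytes carried Ccl3 and Ccl4 in all 8 runs, with a wide spread. Ccl3 ranged from 34.9 CPM in run 6 to 376 in run 4, with a median of 219, and Ccl4 from 12.3 in run 6 to 486 in run 4, with a median of 186. The lowest and the highest run were the same for both genes. Run 6 was also the lowest for both in natural killer cells, at 35.6 CPM for Ccl3 and 172 for Ccl4. In neutrophils run 6 was the highest of 3 for Ccl3 and the lowest for Ccl4, at 25.8 CPM.

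Cells with Ccl3 more often held Ccl4. After thinning, Ccl4 was found in 65.6% of natural killer cells with Ccl3 and in 19.9% of those without it, and in 27.6% against 9.15% of nonclassical monocytes. The shares were 33.3% against 8.15% in interstitial macrophages, 25.0% against 6.20% in inflammatory macrophages, 15.7% against 7.83% in classical monocytes and 14.4% against 3.79% in neutrophils. The direction was the same in each of these gates. The genes lie 13228 bases apart, and the RefSeq span of Ccl4 overlaps that of Ccl3 by 755 bases on the opposite strand. The sources used here do not give the annotation or strand setting of the counting, so some reads there could have been given to either gene.

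**Figure D3:**
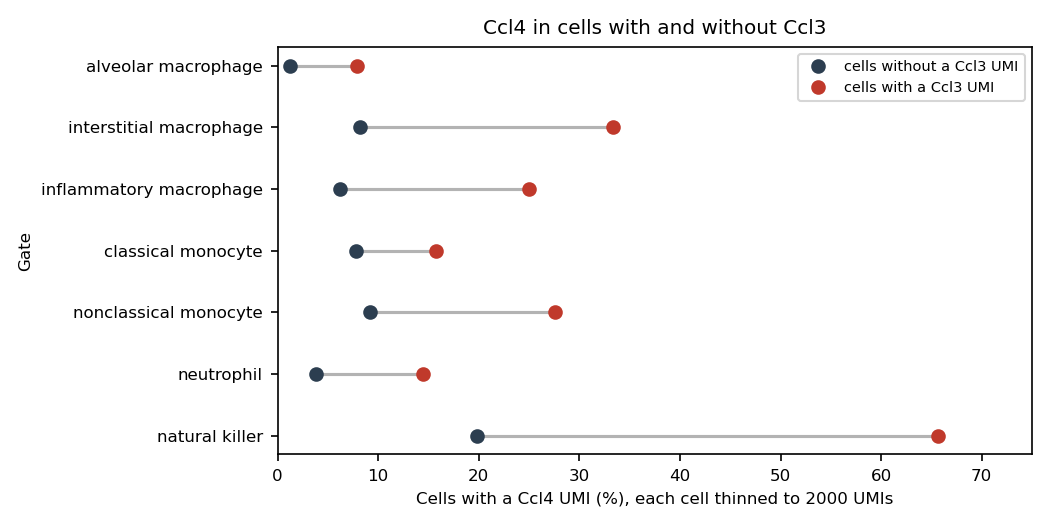
Share of cells with a Ccl4 UMI (horizontal axis, percent) among cells with (red) and without (dark) a Ccl3 UMI in each gate with 20 or more Ccl3 cells, each cell thinned to 2000 UMIs. The share is higher with Ccl3 in all 7 gates shown, and most apart in natural killer cells at 65.6% against 19.9%.

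The levels of early response genes are given beside Ccl3 as a description, since the genes were chosen after these data were seen and support nothing. They are 6 immediate early genes (Fos, Jun, Egr1, Ier2, Atf3, Nr4a1) and 6 NF-kB response genes (Nfkbia, Tnfaip3, Nfkbiz, Tnf, Il1b, Cxcl2). In neutrophils with 2 or more Ccl3 UMIs (90 cells) the sums of these lists stood at 8358 and 11535 CPM, and in neutrophils with 0 (245 cells) at 4966 and 6821 CPM, at median depths of 5230 and 5271 UMIs. In classical monocytes they lay closer together, at 4979 and 1257 CPM with Ccl3 and 4234 and 1225 CPM without it, at 6118 and 4666.5 UMIs. The part of freezing, thawing and sorting in these levels was not tested.

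Ccl5, a ligand of Ccr1 made by activated lymphocytes and dendritic cells, was found mainly in 3 gates. Dendritic cells held 11788 CPM (11415 to 12171), natural killer cells 3975 (3853 to 4099) and T cells 621 (600 to 642). All other gates were at or below 35.2 CPM, and alveolar type 2 cells held 2.49 CPM. The dendritic level was 65.6-fold over the remaining cells. Ccl5 was found in 40 of 44 dendritic cells (90.9%, 78.3 to 97.5), with a mean of 94.0 UMIs in those cells, in 82.6% of natural killer cells with a mean of 25.7, and in 29.8% of T cells with a mean of 17.2. Alveolar type 2 cells, at a like median depth, had Ccl5 in 1.12%. At 2000 UMIs per cell the shares were 90.2%, 71.4%, 23.6% and 0.485% in the same order.

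In natural killer cells Ccl5 stood at 7893 CPM in run 3, 3139 in run 4, 5905 in run 5, 2445 in run 6 and 2979 in run 7. In T cells it ranged from 227 CPM in run 1 to 1439 in run 3 over 7 runs, with a median of 533. The lowest natural killer value was above the highest T cell value. Run 3 was the highest for both, as it was for Ccl4 in natural killer cells. The only run with 20 dendritic cells, run 7, held 13881 CPM.

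Within the T gate Ccl5 was higher in cells with Cd8 or gamma-delta genes than in cells with Cd4 and no Cd8. Cells with Cd8 transcripts and no Cd4 held 710 CPM, with Ccl5 in 38.5% of 244 cells, and cells with the gamma-delta constant gene Trdc held 1035 CPM, with Ccl5 in 42.7% of 225 cells. Cells with Cd4 and no Cd8 held 8.49 CPM, with Ccl5 in 2 of 60 cells. Cells with neither held 647 CPM, with Ccl5 in 28.3% of 353 cells. The Trdc group was not kept apart from the groups by Cd4 and Cd8 and overlaps them. Cells of no gate with basophil or mast, B, conventional dendritic or endothelial genes, or Ager, Hopx or Rtkn2, were set aside. Among the rest, 198 with at least 2 UMIs of Nkg7 and Klrd1, genes of cytotoxic lymphocytes, held 4347 CPM, close to the natural killer gate. The Ncr1 gate thus does not hold all such cells. In conventional dendritic cells Ccl5 stood at 247 CPM, from 6 of 122 cells.

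Ccl6, a chemokine of rodent macrophages, was the most counted member, with 95804 UMIs or 67.2% of all member UMIs. UMIs of this 3-prime kit count transcript ends and need no correction for length, but capture may differ between genes. Alveolar macrophages held 5327 CPM (5276 to 5378) and inflammatory macrophages 1972 (1917 to 2028), followed by nonclassical monocytes at 772, classical monocytes at 749, neutrophils at 529 and interstitial macrophages at 278 CPM. Lymphocytes, dendritic cells and alveolar type 2 cells were between 17.6 and 74.8 CPM. The alveolar macrophage level was 6.90-fold over the remaining cells (6.81 to 6.99).

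Nearly every alveolar macrophage held Ccl6. It was found in 900 of 905 cells (99.4%), with 47.2 UMIs per cell on average, and still in 97.0% at 2000 UMIs per cell. At that depth it was found in 69.5% of classical monocytes, 66.2% of nonclassical monocytes, 48.0% of inflammatory macrophages, 42.7% of neutrophils and 37.1% of interstitial macrophages, against 3.24% of alveolar type 2 cells. Inflammatory macrophages were split, with Ccl6 in only 67.8% of cells before thinning but 41.4 UMIs per cell in those.

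Across runs Ccl6 in alveolar macrophages stood at 3743 CPM in run 1, 3934 in run 2, 3709 in run 3, 8726 in run 4, 6035 in run 5 and 6754 in run 7. Runs 1 to 3 were close to each other and lower than runs 4, 5 and 7. All other cells of these runs held 596 to 1064 CPM. Lower values there were likely in advance, since the gate was chosen on the sum of these runs. In neutrophils Ccl6 was 462 CPM in run 1, 235 in run 6 and 1400 in run 7, the reverse order of Ccl3 there.

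The step of Ccl6 lay below the gate. Cells that passed no other gate and had 5 or more UMIs of Lyz2, Laptm5 and Tyrobp together were arranged by their Ear1 and Marco UMIs. Ccl6 was 1226 CPM in the 3258 cells with 0, 4181 CPM in the 265 cells with 1 and 5454 CPM in the 153 cells with 2, then 4758 CPM with 3 to 5 and 5629 CPM with 6 or more. At 2000 UMIs per cell the share with Ccl6 was 57.7%, 90.2%, 97.3%, 94.6% and 98.7%. Cells with 1 UMI, just outside the gate, thus resembled those inside it in Ccl6 more than the cells with 0. Ccl9 had a smaller step, from 133 CPM with 0 to 214 CPM with 1 and 287 CPM with 6 or more, and Ccl2 went the other way, from 38.4 CPM with 0 to between 0.550 and 4.90 CPM at the higher steps. Median depth rose along the steps from 4007 to 8383 UMIs per cell.

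**Figure D4:**
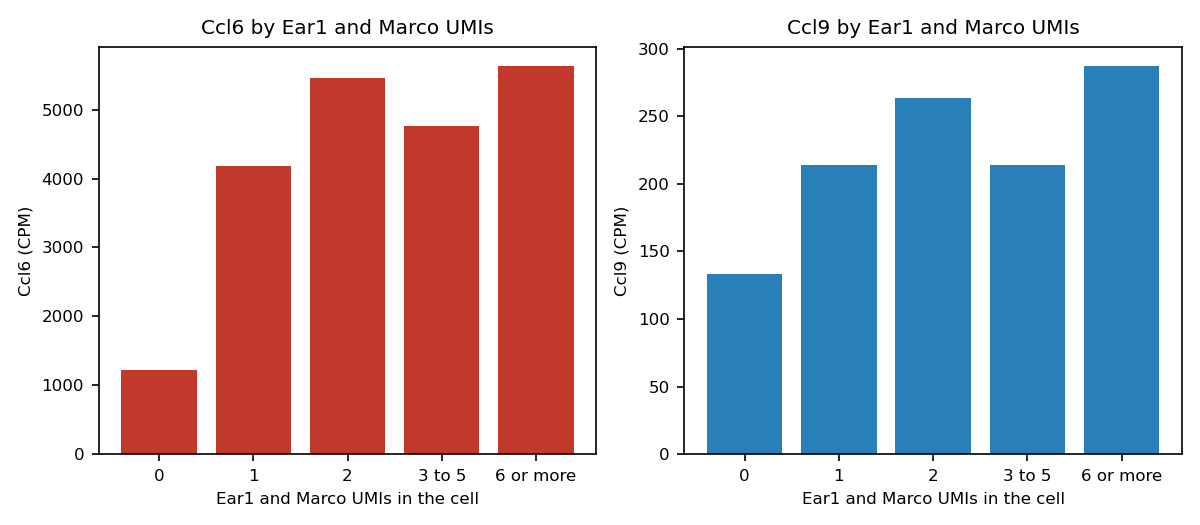
Ccl6 (left) and Ccl9 (right) in CPM, as bars from 0, in myeloid cells that passed no gate other than alveolar macrophage, by the number of Ear1 and Marco UMIs in the cell (the gate begins at 2). Ccl6 goes from 1226 CPM at 0 to 4181 CPM at 1 and stays between 4758 and 5629 CPM from 2 upward.

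Ccl9, the neighbour of Ccl6, was spread almost evenly over macrophages and classical monocytes. Alveolar macrophages held 261 CPM (250 to 272), inflammatory macrophages 248 (228 to 268), classical monocytes 226 (209 to 245) and interstitial macrophages 201 (185 to 217). The first exceeded the second by a ratio of 1.05 (0.961 to 1.15), which leaves their order unresolved, and the inflammatory gate led when run 5 or run 6 was left out. Nonclassical monocytes held 115 CPM, neutrophils 28.1 CPM and the lymphocyte and epithelial gates at most 6.89 CPM. Over all other cells the alveolar macrophage level was 2.58-fold higher (2.46 to 2.71), under the 4-fold line.

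In alveolar macrophages Ccl9 stood at 389 CPM in run 1, 267 in run 2, 179 in run 3, 338 in run 4, 300 in run 5 and 221 in run 7, all above the 62.9 to 153 CPM of all other cells in those runs. Classical monocytes were closer together, from 189 CPM in run 7 to 233 in run 1 over 5 runs. At 2000 UMIs per cell Ccl9 was in 29.7% of alveolar macrophages, 29.2% of classical monocytes, 24.3% of inflammatory and 20.5% of interstitial macrophages and 15.2% of nonclassical monocytes. In inflammatory macrophages 36.1% of cells with Ccl6 held Ccl9, against 13.3% of cells without it, and in nonclassical monocytes 17.7% against 10.3%. In classical monocytes the shares lay close together, at 29.6% and 28.3%.

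The sequences before Ccl6 and Ccl9 are shown because the neighbours share myeloid cells but differ in their preference among them. Both read 5-prime to 3-prime on the minus strand and end at the base before the RefSeq start. They are chr11:83593088-83593337 for Ccl6, which overlaps the GENCODE gene E230016K23Rik, and chr11:83578637-83578886 for Ccl9. Capitals mark the TATA box TATAAA, the AP-1 string TGANTCA and the kappa B string GGNNTTTCC, each read on either strand.
Ccl6: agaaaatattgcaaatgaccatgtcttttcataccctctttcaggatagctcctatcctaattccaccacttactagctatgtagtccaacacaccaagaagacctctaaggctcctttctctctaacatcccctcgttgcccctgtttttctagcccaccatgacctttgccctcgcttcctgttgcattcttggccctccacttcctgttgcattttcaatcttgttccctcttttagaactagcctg
Ccl9: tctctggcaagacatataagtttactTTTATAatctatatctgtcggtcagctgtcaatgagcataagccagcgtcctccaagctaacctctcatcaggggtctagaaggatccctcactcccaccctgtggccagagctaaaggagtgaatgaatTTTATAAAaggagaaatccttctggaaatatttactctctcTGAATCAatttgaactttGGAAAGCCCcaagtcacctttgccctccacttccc
Ccl9 holds AP-1 letters 53 bases and kappa B letters 35 bases before the start, and TATAAA or its complement 3 times, of which 2 overlap, beginning 94 and 92 bases before the start. Ccl6 holds none of the 7 letter strings searched. These also included the STAT string TTCNNNGAA, the IRF string GAAANNGAA and the ETS string GAGGAAG, the last in 10.6% of all promoters and in no member's. TGANTCA is in 6.75% and GGNNTTTCC in 4.93% of all promoters of this length. The best ungapped match of 60 bases between the pair had 30 equal bases, within the 27 to 32 found between any 2 of the 6 promoters.

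Ccl22 and Ccl17, the Ccr4 ligands made by mature dendritic cells, were the members furthest over the next-highest gate, with Ccl22 first. Ccl22 had 506 UMIs in 63 cells, and 333 of them were in the 44 dendritic cells (1043 CPM, 934 to 1162). All other cells held 2.26 CPM, a 463-fold difference (384 to 559). Ccl22 was found in 32 of 44 dendritic cells (72.7%, 57.2 to 85.0), with 10.4 UMIs each on average. Of the 333 UMIs, 92 came from 1 dendritic cell of run 1. Without run 1 the dendritic gate stood at 1112 CPM, 405-fold over the remaining cells. The interstitial and inflammatory macrophage, neutrophil, natural killer, T and alveolar type 2 gates held 0 UMIs. Alveolar macrophages held 15 UMIs in 13 cells (1.88 CPM) and conventional dendritic cells 50 UMIs in 3 cells (46.2 CPM).

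Ccl17 had 416 UMIs in 47 cells, of which dendritic cells held 53 in 10 cells (166 CPM, 124 to 217). All other cells held 4.73 CPM, a 35.1-fold difference (25.8 to 46.9). A single cell of run 5 held 263 of the 416 UMIs (63.2%). That cell had 5896 UMIs in all, passed no gate, had 36 UMIs of Ccl22, 1 of Ccr7 and 0 of Fscn1, and had 148 UMIs of Cd74 and 32 of H2-Aa, which belong to antigen presentation. Without it the fold for the dendritic gate was 127, and without run 5 it was 98.8. Without run 5 the fold of Ccl22 was 809.

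The dendritic gate is small, and its 44 cells came from runs 1 (8), 3 (1), 4 (3), 5 (10) and 7 (22). In run 7 it held 1348 CPM of Ccl22 and 91.1 CPM of Ccl17, against 1.93 and 2.46 CPM in all other cells of the run. Over all thinned cells, 10 of the 25 cells with Ccl17 also held Ccl22, although Ccl22 was found in only 0.395% of all cells. Of the 41 cells with Ccl22, 29 also held Ccl5. Within the dendritic gate Ccl5 was so common that 62.2% of its cells with Ccl5 held Ccl22, against 1 of 4 cells (25.0%) without it.

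The sequences before Ccl17 and Ccl22 are shown because the dendritic gate led for both genes. It held 65.8% of the Ccl22 UMIs but only 12.7% of the Ccl17 UMIs. Both sequences are on the plus strand, at chr8:94810203-94810452 for Ccl17 and chr8:94745434-94745589 for Ccl22. The second ends where the GENCODE gene begins, 94 bases before the RefSeq start. The RefSeq span of Ccl17 begins further upstream, at 94809380, so that stretch lies inside it. Capitals mark TTCNNNGAA, the form read by STAT factors.
Ccl17: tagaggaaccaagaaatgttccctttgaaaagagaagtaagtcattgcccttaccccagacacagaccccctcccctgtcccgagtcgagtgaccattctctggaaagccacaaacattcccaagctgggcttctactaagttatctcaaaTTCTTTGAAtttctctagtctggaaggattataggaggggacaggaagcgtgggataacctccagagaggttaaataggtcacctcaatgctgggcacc
Ccl22: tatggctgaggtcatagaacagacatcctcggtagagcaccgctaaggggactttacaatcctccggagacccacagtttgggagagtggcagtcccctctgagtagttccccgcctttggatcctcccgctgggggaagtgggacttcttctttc
The STAT letters in Ccl17 begin 99 bases before the start, and the string is in 7.02% of all promoters of this length. The 7 strings were not found in the 250 bases before Ccl22. The remaining promoter, of Ccl3, held GAAANNGAA (7.13% of all promoters).

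Cells seldom held more than 2 members. At 2000 UMIs per cell, 38.4% of all cells held none, 37.5% held 1, 18.3% held 2, 5.00% held 3 and 0.819% held 4 or more. Dendritic cells held 1.73 members on average, classical monocytes 1.48, alveolar macrophages 1.37, inflammatory macrophages 1.25, natural killer cells 1.24 and nonclassical monocytes 1.20. Alveolar type 2 cells held 0.0663. Ccl5 and Ccl6 seldom met: 52 cells held both Ccl5 and Ccl6, which is 9.65% of cells with Ccl5, while 48.3% of all cells held Ccl6.

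Summed counts per gate and run gave 51 points on which members and other genes were compared as log2(CPM + 1). The points share gates and runs, and the coefficients are descriptions. Among the members, Ccl6 and Ccl9 were most alike (Pearson r = 0.86), with Ccl7 and Ccl12 (0.86), Ccl3 and Ccl4 (0.73) and Ccl2 and Ccl9 (0.72) next, and Ccl5 ran opposite to Ccl6 (-0.54) and Ccl9 (-0.52). Of 10172 other genes with at least 500 UMIs, those most like Ccl2 included Lyl1 (0.83) and Ifi211 (0.82), and Ccl12 was most like C1qc (0.89), Pf4 (0.87) and Mmp12 (0.74). Ccl7 was most like Pf4 (0.83), C1qc (0.80) and Mmp12 (0.75), the same 3 genes as Ccl12. Since C1qa and C1qb set the interstitial macrophage gate, a high C1qc in its points was likely in advance. The likeness of Ccl12 and Ccl7 to C1qc thus partly restates that gate. Ccl3 was most like Fcer1g (0.86), Tyrobp (0.83) and Itgam (0.82), and Ccl4 most like Gpr65 (0.77), S100a6 (0.76) and Ccdc12 (0.74).

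Ccl5 was most like P2ry10 (0.90), Stat4 (0.86) and Skap1 (0.85), genes of lymphocytes. Ccl6 was most like Lgals3 (0.92), Cd44 (0.91) and Atp6v1e1 (0.91), and Ccl9 most like B3gnt8 (0.95), Tfec (0.93) and Adgre1 (0.93). The likeness was lowest for Ccl17 and Ccl22, and 1 of the 51 points is a dendritic one. Ccl17 was most like Etv3 (0.62), Txndc17 (0.53) and Stoml1 (0.53), and Ccl22 most like Rab21 (0.66), Tmem123 (0.65) and Uap1 (0.60).

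The receptors of these ligands were found on partly different cells. Of 12 CC and atypical receptors examined besides the gate gene Ccr7, 11 had a UMI, 4 reached 20 CPM in a gate and these 4 were at least 4-fold over the remaining cells, against 22.6% of all genes. Ccr1, a receptor of Ccl3, Ccl5, Ccl6 and Ccl9, stood at 505 CPM in neutrophils, 231 in interstitial and 213 in inflammatory macrophages. Ccr2, the receptor of Ccl2, Ccl7 and Ccl12, stood at 752 CPM in interstitial macrophages and 737 CPM in classical monocytes, the same gates that led for Ccl2. Ccrl2, an atypical receptor without a classical signal, stood at 523 CPM in neutrophils.

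Ccr4, the receptor of Ccl17 and Ccl22, had 81 UMIs in 68 cells and reached at most 4.22 CPM, in T cells. Ccr7, at 2391 CPM in dendritic cells, was part of the rule of that gate and is no result. Ccr9 stood at 47.3 CPM in T cells. Ackr1, an atypical receptor of venous endothelium and red cells, was listed at 0 in all cells.

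**Figure D5:**
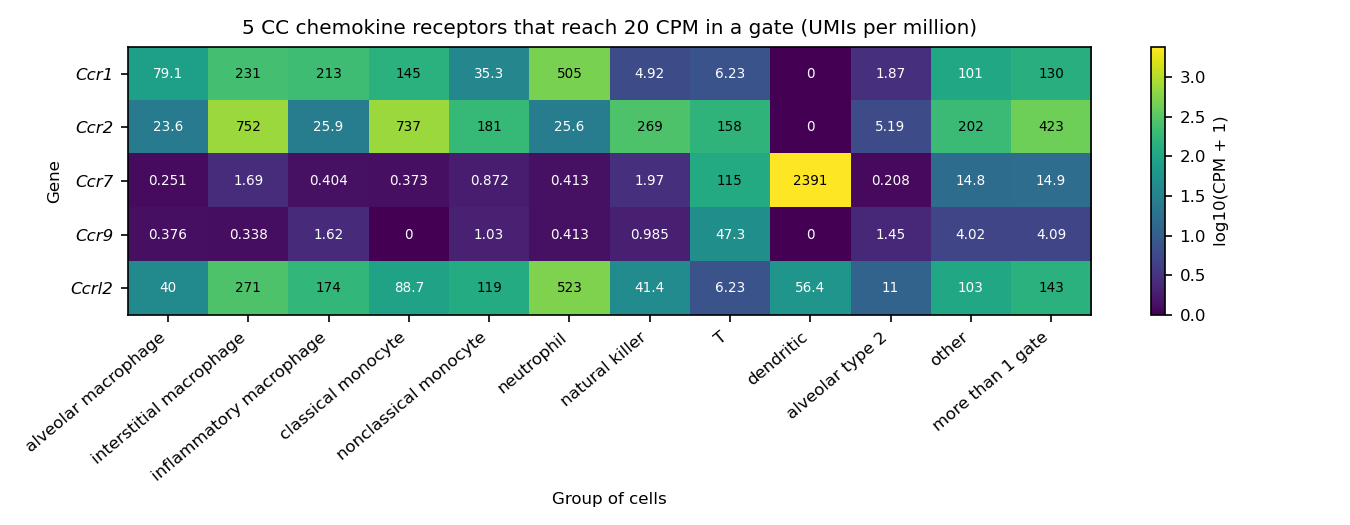
CPM (printed in each square) of 5 CC chemokine receptors that reach 20 CPM in a gate, in the gates, in cells that passed none (other) and in cells that passed more than 1, with colour on a log10(CPM + 1) scale. Ccr2 is brightest in interstitial macrophages and classical monocytes (752 and 737 CPM), and Ccr1 and Ccrl2 in neutrophils (505 and 523 CPM).

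The 10 other CC ligands were mostly low. A UMI was found for 7 of them, 1 reached 20 CPM in a gate and 0 were at least 4-fold over the remaining cells. That one was Ccl25, at 26.3 CPM in inflammatory macrophages, 1.57-fold over the remaining cells. Ccl8, Ccl11 and Ccl19 were listed at 0. Ccl21a, a ligand of Ccr7 made by lymphatic endothelium, was at most 0.830 CPM in a gate but stood at 623 CPM in 411 cells outside the gates with at least 2 UMIs of Cdh5 and Cldn5 (endothelial), from 34 cells. In the same endothelial group the members were low, with Ccl6 at 23.9 CPM and Ccl5 and Ccl9 at 6.33 CPM each.

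Cells outside the gates held much of some members. The 5273 cells that passed none held 30332 of the 95804 UMIs of Ccl6 (31.7%), 3206 of the 9894 of Ccl3 (32.4%) and 2182 of the 6743 of Ccl4 (32.4%). Within them, 3051 cells with at least 5 UMIs of Lyz2, Laptm5 and Tyrobp held Ccl6 at 1708 CPM, Ccl3 at 170 and Ccl9 at 139 CPM, and so the gates leave out many myeloid cells with these transcripts. Of cells that passed more than 1 gate, 130 passed both monocyte gates, at a median depth of 9274 UMIs. Summed over runs they held Ccl3 at 245 CPM and Ccl4 at 280 CPM, above either monocyte gate alone. The runs differed, with Ccl3 at 496 CPM in run 2 and 149 in run 7, and Ccl4 at 560 and 192 CPM. Of their 402 Ccl4 UMIs, 75 came from 1 cell of run 2. A doublet and a cell between types cannot be told apart in this group.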

How the data were processed

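Per the labels' protocols, sorted lung cells were profiled with a droplet 3-prime kit. The authors deposited 1 table of whole-number UMI counts, not normalized. The submitters' processing notes name Cell Ranger 1.3.1 and mm10. The sources used here give no other settings. The table held 77020720 UMIs over 11806 cells, with 1055 to 39865 UMIs per cell (median 4425).

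No column name matched a library's labels, so all cells were treated as 1 pooled sample, and the planned edgeR comparison of hyperoxia with air was not run. Counts were summed per gate and given as CPM with exact Poisson intervals, shares of cells with Clopper-Pearson intervals and ratios with conditional exact intervals. Limits beside a count of 0 stand for 3 counts. Shares were compared after thinning to 2000 UMIs per cell. Doublets were kept, with cells of more than 1 gate held apart, and free RNA was not subtracted. A gate or run needed 20 cells. A gene was called at 20 CPM or more and 4-fold or more. Code used Python 3.11.15, numpy 2.4.6, scipy 1.17.1 and pandas 2.3.3, and was tested on simulated data.

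The members, gates and lists were chosen with earlier results of these data known. Named genes were the 10 members, other CC ligands and receptors that reach 20 CPM, the 3 genes most like each member, gate markers and 7 motifs. Some genes that this rule names are not reported here. The early response genes and single cells were chosen after their values were seen. Alternatives changed the gates, doublets, cell filter, depth, weighting and runs.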

Additional observations from a re-analysis of the deposited data

How the results depend on the processing

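Alternatives assigned cells of more than 1 gate to the first or to every gate, doubled the gate minimums, removed the 193 cells with the highest doublet scores (scanpy 1.11.5), kept the 8652 cells with at least 1200 genes and at most 5% mitochondrial UMIs, thinned cells, averaged cells or runs equally, or left out a run. The number of members at 20 CPM and 4-fold or more over the remaining cells was 6 to 8 under these, against 7, but not always the same ones: Ccl4 and Ccl7 each fell out under 3 alternatives, and Ccl12 came in under 4. Over the next-highest gate there were 2, since that ratio asks for more. Leaving out each run in turn gave 6 to 7 such members, 9 to 10 with the same leading gate and 5 to 8 of 10 higher in every run, against 7. The last number was 9 with doubled minimums, 6 with the stricter filter and 5 with thinning. It counts Ccl5, Ccl17 and Ccl22 as not higher where no run keeps 20 dendritic cells, as without run 7, with the stricter filter and with thinning. The leading gate changed for Ccl2 (to classical monocytes), Ccl7 (to interstitial macrophages) and Ccl9 (to inflammatory macrophages) under 1 or more alternatives, and for no other member. None of the 174 alternative folds was below 1, and 20 moved by over 1.5 times. The 174 include the folds over the next-highest gate, which by definition cannot fall below 1. This different ratio was the only move for Ccl3, Ccl4, Ccl5, Ccl6 and Ccl9, and was among the moves for Ccl2, Ccl7 and Ccl17. Ccl2 was 8.17-fold with runs weighted equally, and Ccl12 was 20.7-fold to 34.1-fold under 6 alternatives. Ccl22 was 700-fold with runs weighted equally, but only run 7 had 20 dendritic cells, so this value is that of run 7 alone. The cause of the other shifts was not tested. Values of Ccl2, Ccl7, Ccl12 and Ccl17 without their highest cell were added after seeing the data. Depth limits Ccl7, Ccl12, Ccl17 and Ccl22 most, which have 143, 117, 416 and 506 UMIs. No paired analysis was possible because the columns carry no library or replicate number.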
